A study of Homo sapiens with 4 samples.

Results

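The HLA class I antigen presentation genes described here are 9 genes named by symbol: the heavy chain genes HLA-B, HLA-C, HLA-E and HLA-F, the pseudogene HLA-H, the light chain gene B2M, and the peptide loading genes TAP1, TAP2 and TAPBP. Each was found through the RefSeq accessions (records) that carry its symbol, and its value is the mean over its records. All 9 genes had a value, from 13 records, among 19468 named genes of the series. The study compared MDA-LM2 cells, breast cancer cells selected from MDA-MB-231 for growth in the lung, after transfection with a small interfering RNA (siRNA) against TARBP2 (siTARBP2-1 and siTARBP2-2, 1 array each) with cells given a control siRNA (siControl-1 and siControl-2). TARBP2 encodes a Dicer cofactor that binds double-stranded RNA. Total RNA was taken 48 hours after a lipid transfection and measured on Illumina expression BeadChips. Per the series' design text the 2 TARBP2 siRNAs are independent ones, so the knockdown group holds 1 array of each and its spread includes the difference between siRNAs. The series text calls the controls mock-transfected, whereas the sample labels name a control siRNA.

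Class I molecules carry short peptides from the inside of the cell to its surface, where cytotoxic T cells read them and natural killer cells sense their presence. A polymorphic heavy chain pairs with beta-2 microglobulin in the endoplasmic reticulum. The TAP transporter pumps in peptides made by the proteasome, and tapasin holds the empty heavy chain beside it. Transcription of these genes is known to answer to interferon and NF-kB through short elements close to the start site, and loss of class I expression is a known route by which tumour cells avoid T cells.

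The promoters of 5 genes are shown because the 3 HLA genes share most of their sequence, while B2M and TAP1, whose products act with the heavy chains, hold the interferon element in another form than HLA-B and HLA-C. Each is the 250 bases before the start of the gene in RefSeq (GRCh38.p14), written in the direction of transcription. Capitals mark matches, on either strand, to the interferon-stimulated response element in a long form (GAAA, any 2 bases, GAAA) and a short form (GAA, any 2 bases, GAAAC), to an NF-kB-like motif (GGG, any 2 bases, TT, any base, CC) and to the core of the X2 box (TGACGC). HLA-B lies at chr6:31357180-31357429 on the minus strand, HLA-C at chr6:31272093-31272342 on the minus strand and HLA-F at chr6:29723184-29723433 on the plus strand. B2M lies at chr15:44711267-44711516 on the plus strand and TAP1 at chr6:32853705-32853954 on the minus strand.
HLA-B: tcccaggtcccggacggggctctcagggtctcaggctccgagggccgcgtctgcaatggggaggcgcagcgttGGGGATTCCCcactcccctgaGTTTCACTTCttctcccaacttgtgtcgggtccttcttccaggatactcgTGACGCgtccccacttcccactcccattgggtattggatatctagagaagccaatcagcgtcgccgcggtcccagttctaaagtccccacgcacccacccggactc
HLA-C: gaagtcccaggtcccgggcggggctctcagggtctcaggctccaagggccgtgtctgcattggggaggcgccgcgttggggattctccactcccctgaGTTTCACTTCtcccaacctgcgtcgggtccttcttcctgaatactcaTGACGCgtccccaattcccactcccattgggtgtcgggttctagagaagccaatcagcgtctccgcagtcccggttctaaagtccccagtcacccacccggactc
HLA-F: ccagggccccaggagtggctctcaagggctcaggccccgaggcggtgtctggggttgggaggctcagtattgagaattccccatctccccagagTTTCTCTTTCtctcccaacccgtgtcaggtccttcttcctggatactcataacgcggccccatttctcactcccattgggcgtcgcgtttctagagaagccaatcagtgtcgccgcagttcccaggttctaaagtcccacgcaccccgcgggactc
B2M: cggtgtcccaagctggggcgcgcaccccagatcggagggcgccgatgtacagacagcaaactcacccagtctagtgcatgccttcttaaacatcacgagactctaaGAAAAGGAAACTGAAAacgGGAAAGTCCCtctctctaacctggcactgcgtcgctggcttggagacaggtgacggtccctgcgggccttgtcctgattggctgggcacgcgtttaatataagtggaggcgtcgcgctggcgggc
TAP1: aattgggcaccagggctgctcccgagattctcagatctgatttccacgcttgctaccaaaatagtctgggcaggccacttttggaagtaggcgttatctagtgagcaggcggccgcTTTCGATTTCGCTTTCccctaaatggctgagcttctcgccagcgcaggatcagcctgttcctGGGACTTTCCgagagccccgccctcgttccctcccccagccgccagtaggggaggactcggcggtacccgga

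These windows showed the close kinship of the heavy chain genes. Over an alignment of the 250 bases, HLA-B and HLA-C were 90.4% identical, HLA-B and HLA-F 82.0%, and HLA-C and HLA-F 81.2%. Against B2M, the same measure gave 57.6% for HLA-B, which is near the 56.4% to 60.0% found for all pairs that hold a gene outside the HLA family. No window was available for HLA-E and HLA-H, so their promoters are not described. All 7 windows found for the genes (also those of TAP2 and TAPBP) held a match to one form of the interferon element, against 3.02% of 35116 human promoters for the long form and 1.23% for the short form. HLA-B and HLA-C held the short form, and HLA-F, B2M, TAP1, TAP2 and TAPBP the long form. B2M, TAP1 and TAPBP each held 2 overlapping matches to the long form. The match began 156 bases before the start in HLA-B and in HLA-F, and 152 bases before it in HLA-C. The NF-kB-like motif was found in 4 of the 7 windows (HLA-B, B2M, TAP1 and TAPBP) and in 5.07% of all promoters. The X2 box core was found in 3 of the 7 (HLA-B, HLA-C and TAP2) and in 7.67% of all promoters. The CCAAT box, left in small letters above, was found in 5 of the 7, among them all 3 HLA genes, and in 32.0% of all promoters. The motifs were chosen for their known place in class I promoters, and a match describes letters and not a bound site.

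Values of named genes come from the authors' deposited table of comparisons, which gives each record 1 log fold change, knockdown over control, and no value per array. The log base is not stated and is read here as log2. No value could be assigned to an array, so they carry no error, no number of replicates and no test. In the authors' deposited table TARBP2 itself was listed at -0.78, and 121 of the named genes were lower. Per the authors' deposited table, 13.1% of all named genes lay above 0.2, the bound of the authors' class of raised records, and 12.1% lay below -0.2. Against this, 3 of the 9 class I genes lay above 0.2 (HLA-H, HLA-E and HLA-F), 1 lay below -0.2 (B2M) and 5 lay between in the authors' deposited table. The shares over all named genes were taken without a filter on detection. Among the 21075 probes detected on at least 2 arrays, 52.4% differed by 0.2 or more, in either direction, between the group means. That share is in log2 of the authors' normalized intensities, which may not be the scale of the listed values. The median of the 9 was 0.18 in the authors' deposited table, beside 0.002 over all named genes.

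**Figure D1:**
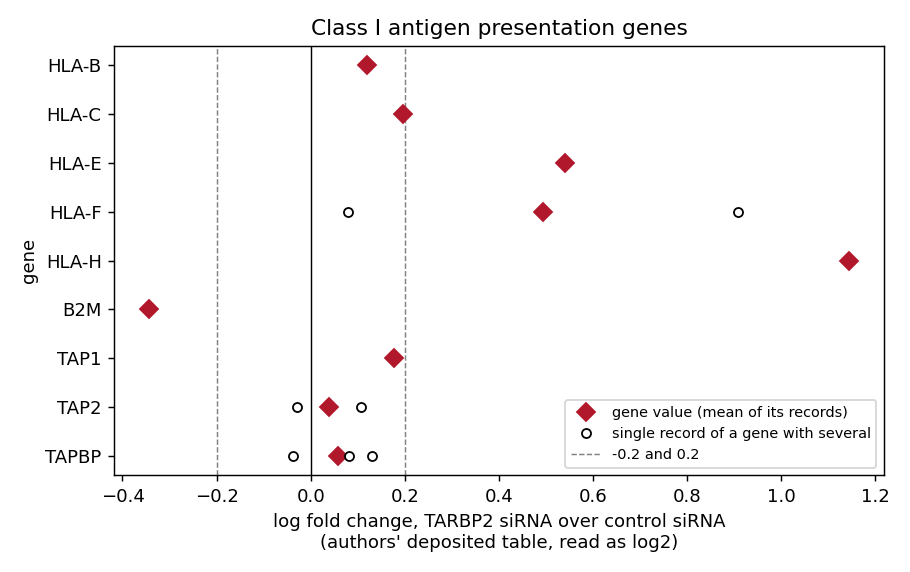
Values of the 9 class I antigen presentation genes in the authors' deposited table (horizontal axis, log fold change, knockdown over control, read as log2); diamonds are gene values, open circles the single records of genes with several, and dashed lines mark -0.2 and 0.2. HLA-H (1.14), HLA-E (0.54) and HLA-F (0.49) lie right of 0.2, B2M (-0.34) lies left of -0.2, and the records of HLA-F are the farthest apart.

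The heavy chain genes all had values above 0, with a wide spread among them. HLA-E, whose product shows leader peptides of other class I molecules to natural killer receptors, was listed in the authors' deposited table at 0.54, below 496 other genes. HLA-F, a heavy chain that can reach the surface without peptide, had 0.49 in the authors' deposited table, below 634 other genes. The mean of HLA-F hides 2 unlike records: the authors' deposited table lists NM_018950 at 0.91 and NM_001098479 at 0.08. The range of 0.83 between these records was reached by 34 of the 2500 genes with at least 2 records in the authors' deposited table (1.36%), where the median range was 0.13 and the 90th percentile 0.47. Only the first HLA-F record belongs to the authors' class 1 in the authors' deposited table.

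The classical heavy chains that present peptides to T cells had smaller values. HLA-C, also the main class I ligand of killer cell receptors, stood at 0.196 in the authors' deposited table, just under the bound of 0.2. HLA-B, the most polymorphic of these genes, had 0.12 in the authors' deposited table, below 3838 other genes. HLA-G, a heavy chain best known from the placenta and not one of the 9 genes, stood at 0.65 in the authors' deposited table. The 4 heavy chain genes and the pseudogene HLA-H, 5 in all, lay above 0 in the authors' deposited table, with 3 above 0.2 and a median of 0.49, whereas 51.0% of all named genes lay above 0.

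HLA-H had the highest value of the 9. This transcribed pseudogene, which is close in sequence to other class I genes, stood at 1.14 in the authors' deposited table, a 2.21-fold difference if the base is 2. Only 9 of the 19468 named genes stood higher in the authors' deposited table. HLA-H has a single record in the authors' deposited table, NR_001434. Probes of HLA genes may read more than one of them, so values such as those of HLA-H and HLA-G in the authors' deposited table may not be separate measurements, and how far they overlap was not tested.

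B2M went the other way. It encodes beta-2 microglobulin, the light chain that the HLA class I heavy chains need to reach the surface in their folded form. The gene lies on chromosome 15, whereas the other 8 genes lie on chromosome 6. B2M had -0.34 in the authors' deposited table, a ratio of 0.788 if the base is 2, and 1287 genes were lower. It was the only one of the 9 genes with a value under 0 in the authors' deposited table, and its single record, NM_004048, gives no second reading.

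The peptide loading genes all lay between -0.2 and 0.2, with TAP2 and TAPBP near 0. TAP1, the first subunit of the peptide transporter, stood at 0.18 in the authors' deposited table, and TAP2, the second subunit, at 0.04. TAPBP, which encodes the chaperone tapasin, stood at 0.06 in the authors' deposited table. Their records differed in sign but not by much: the authors' deposited table lists TAP2 at -0.03 and 0.11, and TAPBP at -0.04, 0.08 and 0.13. No record of these 3 genes belongs to the authors' class 1 in the authors' deposited table. The order of the 9 genes in the authors' deposited table, from the highest, was HLA-H, HLA-E, HLA-F, HLA-C, TAP1, HLA-B, TAPBP, TAP2 and B2M. HLA-E and HLA-F differed by less than the range of the HLA-F records, and TAPBP and TAP2 by less than the range of their own records.

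The arrays give a measure of how large such values are beside the spread between samples, although probes carry no gene names here and cannot be assigned to these genes. The arrays detected 21639 and 20958 of 47321 probes with siTARBP2-1 and siTARBP2-2, against 20393 and 19411 in the controls. No probe of 21075 tested passed an adjusted p of 0.05 between TARBP2 siRNA and control siRNA arrays (limma, smallest adjusted p = 0.805, 0% of probes), and 815 had an unadjusted p under 0.05. The count was 4479 without siTARBP2-1 and 12035 without siTARBP2-2, where the remaining knockdown array is assumed to vary as the control pair did. In log2 of the authors' normalized intensities, the knockdown arrays differed from each other with an SD of 0.707 over probes, and the controls with an SD of 0.159. A difference of 0.2 or more was found for 70.1% of probes between the knockdown arrays and for 17.7% between the control arrays. The array of siTARBP2-1 stood apart: it differed from the mean control with an SD of 0.658 and that of siTARBP2-2 with an SD of 0.281, and its raw 75th percentile was 327.1, against 252 for siTARBP2-2 and 241.4 and 228.8 for the controls.

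Differences of the size of each class I value were less common between the control arrays than between the arrays of the siRNAs. A difference of the size listed for HLA-H in the authors' deposited table was found for 11.0% of probes between the knockdown arrays and for none of 21075 between the controls. The size listed for HLA-E in the authors' deposited table was reached by 36.9% of probes between the knockdown arrays and by 0.565% between the controls. Against the mean control it was reached by 34.6% of probes for siTARBP2-1 and by 5.50% for siTARBP2-2. The size listed for B2M in the authors' deposited table was reached by 53.5% of probes between the knockdown arrays and by 3.91% between the controls. The sizes listed for HLA-C, TAP1, HLA-B, TAPBP and TAP2 in the authors' deposited table were reached by 18.4% to 77.9% of probes between the 2 control arrays. So 5 of the 9 values were of a size common between the control arrays. Each of the 9 was of a size that at least 11.0% of probes reached between the arrays of the siRNAs. These pair shares come from differences of single probes between single arrays, whereas the listed values compare 2 groups. With no effect at all, differences between single arrays spread more than those between group means, so the pair shares are not a like measure. Between the group means, knockdown minus control, 0.503% of probes reached the size of HLA-H, 13.4% that of HLA-E and 30.2% that of B2M, again at the sizes in the authors' deposited table. With other background correction (neqc), the control shares were 0.185% for HLA-H, 5.04% for HLA-E and 13.8% for B2M at the sizes in the authors' deposited table. How the authors' deposited table scales its values is not known, so these shares are a description on an assumed common scale.

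**Figure D2:**
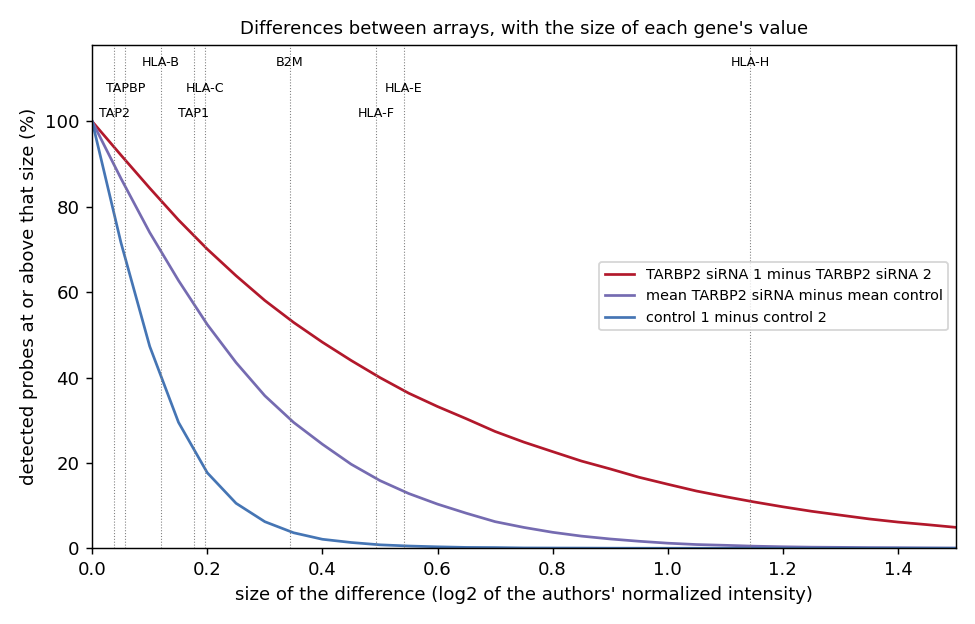
Share of the 21075 detected probes (vertical axis, %) whose difference between arrays is at or above a given size (horizontal axis, log2 of the authors' normalized intensity), for the knockdown pair, the mean knockdown minus the mean control, and the control pair; dotted lines mark the size of the value of each class I gene in the authors' deposited table. At the size of HLA-E the knockdown curve stands at 36.9% and the control curve at 0.565%.

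Other class I and class I-like molecules were mostly near 0. Of 20 measured genes of this list, 5 were above 0.2 in the authors' deposited table and none below -0.2, with a median of 0.02. Beside HLA-G, those farthest from 0 were FCGRT, the neonatal Fc receptor heavy chain, at 0.52, and the stress ligands ULBP2 at 0.46 and MICA at 0.42 in the authors' deposited table. ULBP2 and MICA are bound by the activating receptor NKG2D of natural killer cells. The gene lists here and below were chosen with earlier results of these data known, and their counts in the authors' deposited table stand beside the 13.1% above and 12.1% below found for all genes.

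Genes that make and load peptides did not share one direction. Of 13 measured genes of peptide loading and trimming in the endoplasmic reticulum, 1 was above 0.2 in the authors' deposited table and 1 below -0.2. CALR, the calreticulin gene, whose product joins the loading complex, stood at 0.48 in the authors' deposited table, and BCAP31, a sorting receptor for class I molecules, at -0.29. CANX, the calnexin gene, stood at -0.16 and the peptide-trimming protease gene ERAP2 at 0.14 in the authors' deposited table. The 17 measured genes of the immunoproteasome and peptide supply had 4 values above 0.2 in the authors' deposited table and 3 below -0.2. All 3 interferon-inducible catalytic subunits were above 0, with PSMB10 at 0.50, PSMB8 at 0.22 and PSMB9 at 0.16 in the authors' deposited table. Among the subunits that they replace, PSMB5 stood at 0.47, PSMB7 at 0.43 and PSMB6 at -0.24 in the authors' deposited table, so the inducible and the standard subunits were not set apart by their values. TPP2, a cytosolic peptidase, stood at -0.28 in the authors' deposited table.

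Regulators of class I transcription spread widely. Of 25 measured genes, 6 were above 0.2 in the authors' deposited table and 4 below -0.2, with a median of 0.07. IRF1, an activator of class I genes after interferon, had -0.999 in the authors' deposited table, where 35 genes were lower. NLRC5, the main transactivator of class I genes, stood at 0.14 in the authors' deposited table. RFXANK, a subunit of the RFX complex that binds the X box, stood at 0.67 in the authors' deposited table, from records at 0.33 and 1.02. The Polycomb genes EED and SUZ12, known repressors of class I genes in several tumours, had -0.71 and -0.66 in the authors' deposited table, and EZH2, their catalytic partner, gave records at -0.37 and 0.23.

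Signalling genes upstream of these regulators had values on both sides of 0. Of 15 measured receptor and signalling genes, 2 were above 0.2 in the authors' deposited table and 4 below -0.2. The kinase genes JAK1 and TYK2 stood at -0.40 and 0.39, the receptor gene IFNAR1 at -0.33 and the inhibitor gene SOCS1 at 0.28 in the authors' deposited table. Of 38 measured interferon-stimulated genes, 11 were above 0.2 in the authors' deposited table and 5 below -0.2, with LGALS3BP at 1.20, IFITM3 at 1.06, IFITM2 at 0.67 and IFIT2 at -0.56, and a median of 0.00 to 2 decimals. Over all genes, 11.9% of 522 genes with the long form of the interferon element were above 0.2 in the authors' deposited table and 10.9% below -0.2, against 14.2% and 13.3% of 14071 genes without it. For the short form the shares in the authors' deposited table were 10.3% above and 9.01% below for 233 genes with it, against 14.2% and 13.3% for 14360 without it. Genes with the NF-kB-like motif had 16.1% above in the authors' deposited table and 13.8% below, against 14.0% and 13.2% without it. Genes with the X2 box core had 16.6% above in the authors' deposited table and 17.6% below, against 13.8% and 12.6% without it.

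Genes of class I turnover went both ways. Of 16 measured genes, 4 were above 0.2 in the authors' deposited table and 3 below -0.2. DERL1, which takes part in the removal of misfolded class I chains from the endoplasmic reticulum, stood at -0.59 in the authors' deposited table. The sorting gene PACS1 stood at 0.31 and VCP, the ATPase that extracts such chains, at 0.28 in the authors' deposited table.

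Class II genes and leukocyte markers had values above 0.2 beside those of the HLA class I genes. Of 14 measured class II and loading genes, 5 were above 0.2 in the authors' deposited table and none below -0.2. IFI30, a lysosomal thiol reductase, stood at 0.80, the invariant chain gene CD74 at 0.62, LGMN at 0.47, HLA-DMA at 0.40 and HLA-DRA at 0.36 in the authors' deposited table. Of 15 leukocyte markers, which include CD74 and 3 class II genes of the previous list, 4 were above 0.2 in the authors' deposited table and 1 below -0.2. LAPTM5 stood at 0.75 and CD14 at 0.59, but ITGB2 at -0.43, and the pan-leukocyte gene PTPRC at 0.01 in the authors' deposited table. Of 9 fibroblast and endothelial markers only ACTA2, at 0.42, lay outside -0.2 to 0.2 in the authors' deposited table. Of 9 genes known for their level in MDA-MB-231 cells, 3 lay below -0.2 in the authors' deposited table, namely MSN (-0.74), AXL (-0.52) and CAV1 (-0.27). Their levels per array were not analysed here, since probes carry no names, so the labelled cell type was not checked, and the part of other cells in the class I values was not tested.

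**Figure D3:**
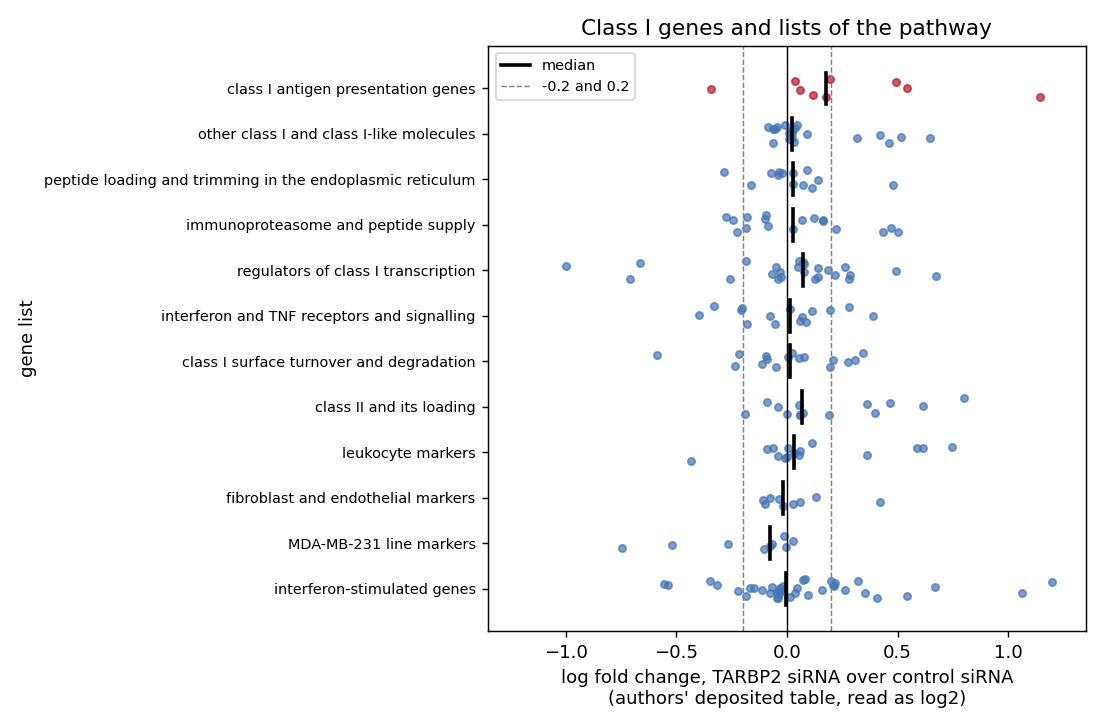
Gene values in the authors' deposited table (horizontal axis, log fold change, knockdown over control, read as log2) for the 9 class I antigen presentation genes and 11 lists; each point is a gene, black bars are medians and dashed lines mark -0.2 and 0.2. The class I genes have a median of 0.18, and the lists have medians from -0.08 to 0.07.

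The region of chromosome 6 that holds 8 of the 9 genes also had many values above 0.2. Between HLA-F and TAPBP, the outermost of the 8 in RefSeq order, 140 other genes had a value, of which 32 (22.9%) were above 0.2 in the authors' deposited table and 8 (5.71%) below -0.2, with a median of 0.06. Leaving out every gene of the lists above and every other HLA gene kept 121, of which 21.5% were above 0.2 in the authors' deposited table and 6.61% below -0.2. On the rest of chromosome 6, 872 genes had a value in the authors' deposited table, of which 9.29% were above 0.2 and 14.2% below -0.2. Genes of the region with no known part in class I presentation, chosen after their values were seen, reached values near that of HLA-H: in the authors' deposited table the nuclear membrane gene NRM stood at 1.06, the membrane raft gene FLOT1 at 0.96 and the kinase subunit gene CSNK2B at 0.895. The lowest of the region was the chaperone gene HSPA1B at -1.32 in the authors' deposited table, whose neighbour and near copy HSPA1A had -0.59. Some direct neighbours had like values and others did not: HLA-H lies between HLA-G (0.65) and HCG4B (0.04), HLA-E between RPP21 (0.49) and GNL1 (-0.13), and TAP1 between PSMB8 (0.22) and PSMB9 (0.16) among the genes of the authors' deposited table. No test was made of the region, which was examined with the values known.

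**Figure D4:**
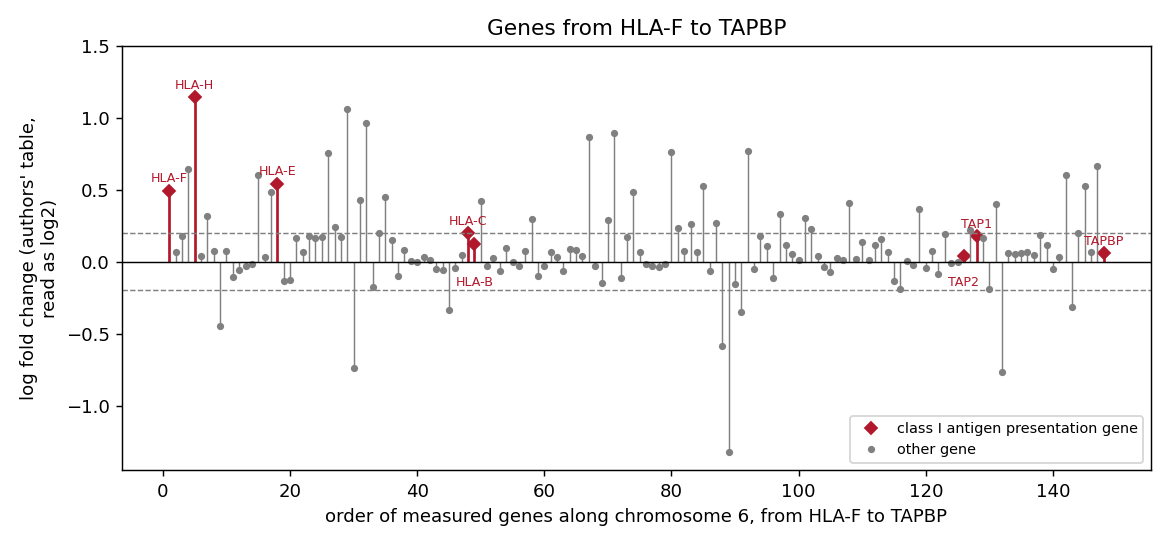
Gene values in the authors' deposited table (vertical axis, log fold change, knockdown over control, read as log2) by the order of measured genes along chromosome 6 from HLA-F to TAPBP; red diamonds are 8 class I antigen presentation genes, grey points 140 other genes, and dashed lines mark -0.2 and 0.2. HLA-H at 1.14 is the highest of the region, followed by NRM at 1.06, and HSPA1B at -1.32 is the lowest.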

How the data were processed

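Labelled total RNA of 4 MDA-LM2 samples, 2 with TARBP2 siRNA and 2 with control siRNA, was measured on Illumina BeadChips. The 2 knockdown arrays hold different siRNAs, so the spread between them includes the difference between siRNAs and is not technical alone. For the 2 control arrays, the labels do not state whether the cells were grown apart, and the difference between those arrays may be technical. The p-values cover only the spread of these 4 arrays. The authors' deposited table gives a log fold change per record, read as log2, and a class of 0 or 1. The class was 1 above 0.2. The deposited raw intensity values were not normalized, and a detection score accompanies each in the deposited file. A further deposited table holds normalized intensity values that share their quantiles. The submitters' processing notes name lumi. Its settings, and the way probes were joined to records, are not given in the sources used.

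Records were matched without version to RefSeq symbols of GRCh38.p14 (22411 of 39745, 56.4%), and a gene value is the mean over its records. Named genes were the 9 class I genes, the 4 genes farthest from 0 in each list, and some single genes such as TARBP2, IRF1 and NLRC5. A few genes under this rule are not reported here. Others named fall outside this rule and were chosen after their values were seen. The genes, lists and motifs were chosen with earlier results of these data known. No likeness of pattern between genes was computed, since each has 1 value. Probe intensities were treated with neqc (offset 16) and compared with limma 3.58.1 in R 4.3.3, with an intensity trend and Benjamini-Hochberg adjustment, for the 21075 probes with a detection p (1 minus the score) under 0.05 on at least 2 arrays. The fit was tested on simulated data in which all 4 arrays varied like the control pair. On the neqc scale the control arrays differed with an SD of 0.25 and the knockdown arrays with 0.852. The simulation therefore does not show which changes the fit could find in these data. Alignments used Biopython 1.88.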

Additional observations from a re-analysis of the deposited data

How the results depend on the processing

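The count was 3 class I genes above 0.2 in the authors' deposited table, and 1 below -0.2. It was the same with the median of a gene's records, its curated records only or the record farthest from 0. The median of 0.18 did not move either. These settings could not change either result, since all 13 records are curated and only HLA-F, TAP2 and TAPBP have several. Records of TAP2 and TAPBP reach at most 0.11 and 0.13 in the authors' deposited table. The median is the value of TAP1, which has 1 record. With the record nearest to 0 the count was 2 and the median 0.12, since HLA-F then stood at 0.08. Without HLA-H the count was 2 and the median 0.15, and without the 5 HLA genes the count was 0 and the median 0.05. At a bound of 0.1 in place of 0.2 the count was 6 (22.3% of all genes), and at 0.5 it was 2 (3.17%). Of the list genes outside -0.2 to 0.2, IRF7 (0.22) and SYVN1 (-0.23) changed sign with the record nearest to 0, to -0.03 and 0.12 in the authors' deposited table. Genes inside that range also changed sign then, among them TAP2 (to -0.03) and TAPBP (to -0.04) in the authors' deposited table. No alternative bears on the replicate error of these values, which the authors' deposited table does not hold.

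The count of probes past the limma test was 0, and ranged from 0 to 12035 with 1 array left out: 4479 without siTARBP2-1, 12035 without siTARBP2-2 and 0 without siControl-1 or without siControl-2. A lone array of a group was taken to vary like the pair of the other group. With the replicate number as a block the count was 0 and the smallest adjusted p 0.339. Same-numbered samples had deviations with a correlation of -0.0418 across probes. The knockdown deviations also hold the difference between siRNAs, so this value cannot show whether the numbers pair the arrays. The count was also 0 with the authors' normalized values, median scaling, no filter, all 4 arrays detected or no trend, where 613 to 1740 probes had an unadjusted p under 0.05.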
